A study of Homo sapiens with 8 samples.

Results

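The ID genes ID1, ID2, ID3 and ID4 encode helix-loop-helix proteins that lack the basic region with which related factors bind DNA. They are 4 of 18244 genes with a probe set of their own on the array, and were followed on 11 probe sets, of 49495 in all, that the platform annotation assigns to 1 of these 4 genes alone. ID1 and ID3 have 3 probe sets each, ID4 has 4 and ID2 has 1. The family was chosen on the signal of ID2, which was higher with THZ1 than with DMSO in these same data. Values from that contrast are therefore given as a description of all 11 probe sets, with no test. The rule of choice did not use the contrast of siMITF with siCtrl, which was tested. The family and the gene lists below were, however, chosen with earlier results of these data known.

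An ID protein pairs with an E protein (TCF3, TCF4 or TCF12) and so keeps it from forming the dimers with tissue-restricted basic helix-loop-helix (bHLH) factors that bind E-box DNA. ID genes are known targets of bone morphogenetic protein (BMP) signalling through SMAD proteins, and their products are generally high in dividing, undifferentiated cells. ID2 is also known to bind the retinoblastoma protein, and ID1 and ID3 act together in endothelial and progenitor cells. MITF, the regulator of the melanocyte lineage, is itself a bHLH factor with a leucine zipper.

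The cells were SK-MEL-5, an established human melanoma line, in 4 groups of 2 arrays. THZ1, a covalent inhibitor of the transcriptional kinase CDK7, was given at 250 nM for 6 h together with 25 µM DMSO, and its controls had 25 µM DMSO alone, with no duration in the labels. The siMITF cells were transfected with siRNA against MITF and the siCtrl cells with a non-targeting siRNA. The time of harvest after transfection is not given in the sources used here. The labels do not state whether the 2 arrays of each group stand for separate cultures. The p-values therefore reflect array-to-array spread, which may be technical, and the number of arrays limits the precision.

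Deposited signals are normalized to cell number, so differences on that scale are called per cell. Since 2 arrays of the same group could be shifted as a whole against each other, each difference is also given relative to the median probe set, after each array was centred. Median signals were 51.1 to 76.1 on the DMSO and THZ1 arrays, 51.1 and 59.3 with siCtrl, and 40.1 and 32.5 with siMITF. The median tested probe set differed by -0.14 on the log2 scale with THZ1 and by -0.64 with siMITF per cell, and by 0.04 and 0.00 on the relative scale. ERCC spike-in signals had medians of 48.0 to 53.9 on the drug arrays and 27.6 to 30.7 on the siRNA arrays, so levels are ordered within each of these sets and not between them. The spike-in RNA was matched to cell number, but fewer intact cells and less RNA per cell cannot be told apart in such extracts. MITF mRNA, the siRNA target, had signals of 3436 and 3936 with siCtrl and of 1747 and 1168 with siMITF, a log2 difference of -1.35 per cell (SE 0.24, limma adjusted p = 6.70e-07) and -0.71 relative to the median probe set. Of 8 melanocyte markers, 7 had a probe set and all 7 lay above the filter on low signals. Only 1 of 5 keratinocyte markers, 3 of 6 fibroblast markers and 1 of 5 leukocyte markers did so. The fibroblast markers include LUM, at 613 to 2983, and the summed signal of that list was 2370 and 2843 with DMSO, 2658 and 3449 with THZ1, 1539 and 1873 with siCtrl, and 746 and 979 with siMITF. Of the other fibroblast markers, DCN had signals of 45.2 to 284.7, PDGFRA of 32.3 to 56.7, and COL1A1, COL1A2 and COL3A1 of at most 46.2. The part of these lists in the ID differences was not tested.

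The 4 genes lie on different chromosomes. On the build GRCh38.p14, ID1 spans positions 31605289 to 31606510 of chromosome 20, ID2 positions 8682056 to 8684461 of chromosome 2, ID3 positions 23557926 to 23559501 of chromosome 1 and ID4 positions 19837370 to 19842197 of chromosome 6. The 120 bases before each annotated start, from RefSeq, are shown because the 4 family members differed in direction across the contrasts and so may be compared at their own starts. Capitals mark the TATA box letters TATAAA, the CCAAT box letters CCAAT, which the NF-Y complex binds, and the E-box letters CANNTG, which bHLH dimers bind. Each was searched on both strands, and overlapping matches share their capitals.
ID1, chr20:31605169-31605288, plus strand: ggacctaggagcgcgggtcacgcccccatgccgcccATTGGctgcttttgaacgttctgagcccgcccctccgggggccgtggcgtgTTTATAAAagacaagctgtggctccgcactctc
ID2, chr2:8681936-8682055, plus strand: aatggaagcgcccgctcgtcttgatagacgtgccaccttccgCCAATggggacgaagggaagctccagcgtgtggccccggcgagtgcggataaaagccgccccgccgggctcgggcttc
ID3, chr1:23559502-23559621, minus strand: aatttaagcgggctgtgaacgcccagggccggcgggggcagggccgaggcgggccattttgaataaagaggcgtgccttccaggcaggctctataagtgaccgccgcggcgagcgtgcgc
ID4, chr6:19837250-19837369, plus strand: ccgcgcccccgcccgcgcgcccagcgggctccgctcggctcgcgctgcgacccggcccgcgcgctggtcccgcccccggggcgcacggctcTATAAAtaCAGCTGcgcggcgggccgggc

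TATAAA was found before ID1 and ID4, within 33 bases of the start, and not in the windows of ID2 and ID3. Over the 250 bases before the start, 11.1% of 27305 gene promoters held TATAAA on either strand, 33.0% held CCAAT and 62.2% held CANNTG. In that longer window CCAAT was found 3 times before ID2, 1 time each before ID1 and ID4, and not before ID3. CANNTG was found 1 time each before ID2 and ID4. CACGTG and CATGTG, forms of the E-box that MITF can bind, were in 6.49% and 9.54% of promoters and in none of these 4 windows, and GGCGCC, a letter run reported for BMP SMADs, was in 16.1% and in none of the 4. All E-box letters here are also matches of CANNTG. A match or its absence describes only the letters of these windows.

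All 11 probe sets passed the filter on low signals, the group means running from 69.0 to 1717. With THZ1 the 4 genes went different ways. ID2 had the higher signals with THZ1, ID3 the lower ones, ID4 lay lower by less, and ID1 changed little per cell.

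ID2 had signals of 789.0 and 1022 with DMSO, 1535 and 1899 with THZ1, 708.8 and 828.1 with siCtrl, and 548.9 and 418.4 with siMITF. Both THZ1 arrays lay above both DMSO arrays, and both siMITF arrays below both siCtrl arrays. The mean signal was 1.90 times as high with THZ1 as with DMSO, a log2 difference of 0.915 per cell (SE 0.24, n = 2 per group) and 1.09 relative to the median probe set (SE 0.08). These values chose the family, so no test is attached. Of 27167 tested probe sets, 14 had a larger difference, a rank that follows from the choice of ID2 and carries no weight as a test. The ID2 probe set has a name ending in _x_at, a design that can detect related sequences. A further probe set that the annotation gives to both ID2 and ID2B is no member, since its signal may come from either locus. Its signals were 751.8 and 1081 with DMSO, 1707 and 2610 with THZ1, 607.4 and 807.9 with siCtrl, and 552.4 and 396.2 with siMITF. Its mean was 2.35 times as high with THZ1 as with DMSO.

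ID3 had the opposite sign with THZ1 on each of its 3 probe sets. On the brightest, the signals were 1409.6 and 1652 with DMSO and 748.0 and 900.02 with THZ1. The DMSO arrays did not overlap with the THZ1 arrays on any of the 3 probe sets. The mean was 1.86 times as high with DMSO as with THZ1 on that probe set, and 1.81 and 1.67 times on the others. The log2 differences ran from -0.88 to -0.73 per cell (SE 0.24) and from -0.71 to -0.56 relative to the median probe set (SE 0.08).

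ID4 was dimmer. Its brightest probe set had signals of 593.0 and 738.7 with DMSO and 436.3 and 653.6 with THZ1, so that the groups overlapped. On the other 3 probe sets both THZ1 arrays lay below both DMSO arrays, as in the signals of 259.6 and 309.4 with DMSO against 168.8 and 241.8 with THZ1. Log2 differences ran from -0.46 to -0.25 per cell (SE 0.24) and from -0.28 to -0.08 relative to the median probe set (SE 0.08 to 0.09).

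ID1, the member known as a direct target of BMP signalling in many cell types, had signals of 1197 and 1362 with DMSO on its brightest probe set. With THZ1 these were 1046 and 1485, 1 below and 1 above both DMSO arrays. Differences per cell lay between -0.05 and -0.01 over the 3 probe sets (SE 0.24), and between 0.13 and 0.16 relative to the median probe set (SE 0.08 to 0.09), where both THZ1 arrays lay above both DMSO arrays on all 3 probe sets. Counted over the 11 probe sets per cell, 6 had THZ1 arrays below both DMSO arrays and 1 had them above, where 27.6% and 1.45% of all tested probe sets did so. On the relative scale 5 lay below and 4 above, beside 30.0% and 36.7% of all. Nothing is read from these counts, since this contrast chose the family.

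**Figure D1:**
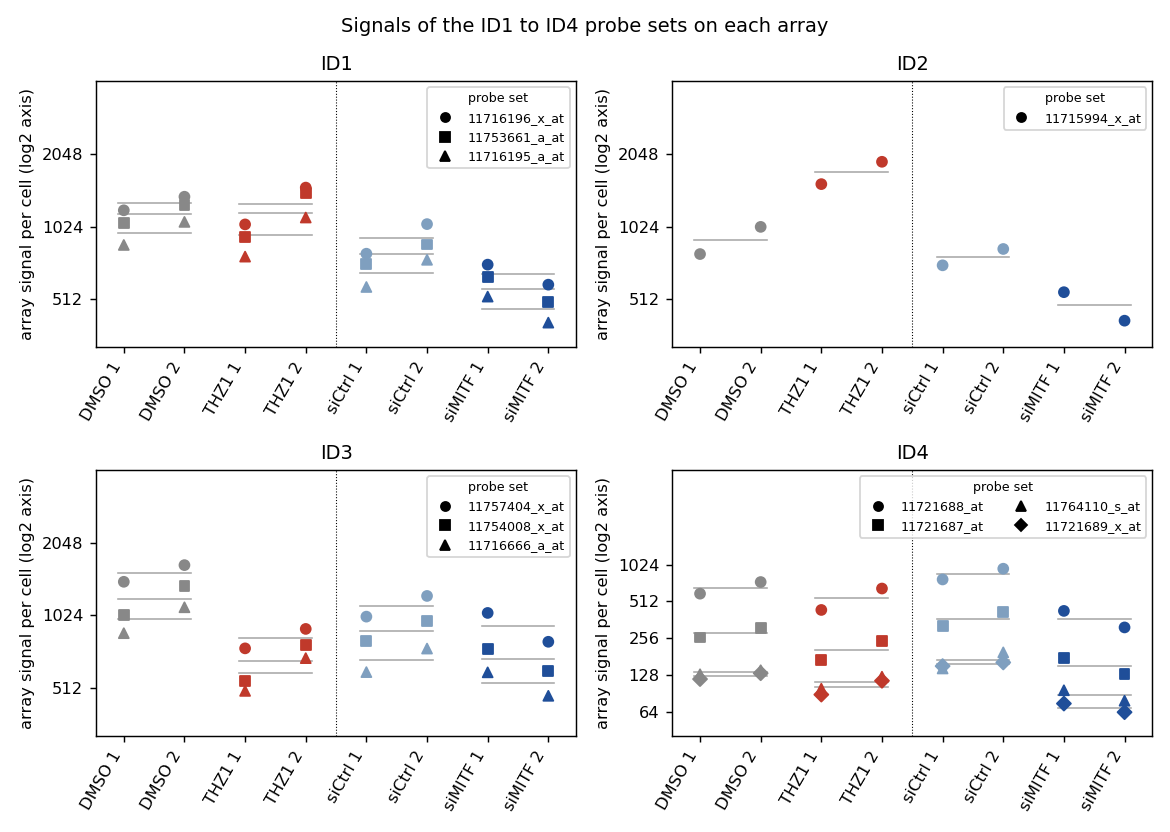
Array signal per cell (log2 axis) of each probe set on each of the 8 arrays, for ID1 to ID4; points are arrays, grey lines are the mean of a group's 2 arrays, and the dotted line parts the drug arrays from the siRNA arrays. ID2 stands at 1535 and 1899 on the THZ1 arrays, and the brightest ID4 probe set at 428.5 and 313.8 on the siMITF arrays.

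After siMITF, ID4 fell both per cell and relative to the median probe set, while ID2 fell per cell alone. Its brightest probe set had signals of 775.6 and 949.7 with siCtrl and of 428.5 and 313.8 with siMITF. The second had 320.8 and 421.2 with siCtrl and 175.0 and 130.2 with siMITF. On each of the 4 ID4 probe sets both siMITF arrays lay below both siCtrl arrays. The mean signal was 2.32 times as high with siCtrl on the brightest probe set and 1.95 to 2.43 times over all 4. The log2 difference of the brightest was -1.19 per cell (SE 0.24, n = 2 per group, limma adjusted p = 1.13e-05), and all 4 passed, with adjusted p from 9.89e-06 to 0.00168. The dimmer probe set with a name ending in _s_at lost its per-cell call without siCtrl replicate 2 (-0.64, limma adjusted p = 0.105) and without siMITF replicate 2 (-0.72, adjusted p = 0.0685), and all 4 lost it with each probe set's own variance (adjusted p = 0.0798). ID4 also fell relative to the median probe set, by 0.55 on the log2 scale on the brightest probe set (SE 0.09, 95% interval -0.75 to -0.35, limma adjusted p = 7.40e-04). There 3 of the 4 passed, and the _s_at probe set had -0.20 (95% interval -0.41 to 0.00), which did not pass.

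ID3 signals were lower per cell after siMITF but by less than the median probe set. On the brightest probe set they were 1012 and 1232 with siCtrl and 1048 and 796.4 with siMITF, and the groups overlapped. On the other 2 probe sets both siMITF arrays lay below both siCtrl arrays, for example at 595.3 and 476.1 against 596.6 and 746.5. Per cell the differences were -0.39 to -0.28 (SE 0.24) and did not pass (limma adjusted p from 0.134 to 0.266). Relative to the median probe set ID3 rose on all 3 probe sets, by 0.25 to 0.36 (SE 0.08, adjusted p from 0.00598 to 0.0235). All 3 calls were lost with a pseudocount of 64 and without the filter on low signals, where the differences were 0.08 to 0.18 and 0.03 to 0.13. That of the middle probe set was also lost without siCtrl replicate 1 (0.24, adjusted p = 0.0822), without siCtrl replicate 2 (0.26), without siMITF replicate 1 (0.24) and without siMITF replicate 2 (0.27), and that of the brightest without siMITF replicate 1 (0.29, adjusted p = 0.0544).

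ID2 moved with the median probe set. Its difference of -0.66 per cell passed (SE 0.24, limma adjusted p = 0.0131), while relative to the median probe set it was -0.02 (SE 0.08, 95% interval -0.20 to 0.16, adjusted p = 0.870). The per-cell call was lost without siCtrl replicate 2 (-0.55, adjusted p = 0.158) and without siMITF replicate 2 (-0.47, adjusted p = 0.222). ID1 had 791.6 and 1049 with siCtrl and 713.4 and 589.5 with siMITF on its brightest probe set, with both siMITF arrays the lower on all 3 probe sets. Its per-cell differences of -0.48 did not pass (SE 0.24, limma adjusted p from 0.0644 to 0.0681). The relative differences of ID1, 0.16 on each probe set, did not pass either (SE 0.08 to 0.09, adjusted p from 0.147 to 0.153), and their intervals ran from -0.03 to 0.36. These results depend on how the arrays were scaled. With quantile normalization 7 ID probe sets passed as higher after siMITF, those of ID1, ID2 and ID3.

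Per cell, 5 of the 11 ID probe sets were lower and 0 higher after siMITF at a limma adjusted p under 0.05, where 65.1% of all tested probe sets were lower and 0.294% higher. Before adjustment 8 had a p under 0.05. The siMITF arrays lay below both siCtrl arrays on 10 of the 11 and above them on 0, beside 89.6% and 0.843% of all. Relative to the median probe set 3 were lower, all of ID4, and 3 higher, all of ID3, beside 24.3% and 19.6% of all, and the arrays did not overlap on 4 lower and 6 higher, beside 38.1% and 36.0%. The per-cell share lies below that of all probe sets and the relative shares near theirs, so the counts themselves are no result about the family. Per cell the count was 3 without siCtrl replicate 2 or without siMITF replicate 2, and 8 without THZ1 replicate 1 or without THZ1 replicate 2, which enter through the shared spread. With each probe set's own variance 0 passed per cell, and 0 of all 27167 did (lowest adjusted p 0.0798, 13785 at an unadjusted p under 0.05). On the relative scale 1 of 11 was higher without siMITF replicate 1.

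**Figure D2:**
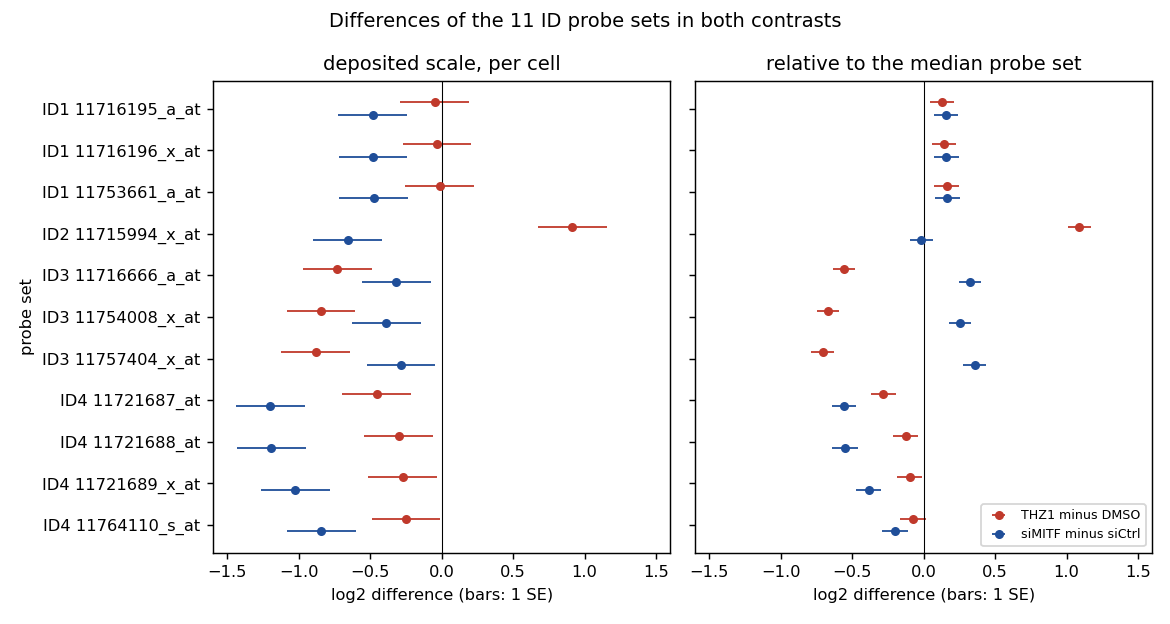
Log2 differences of the 11 ID probe sets for THZ1 minus DMSO (red) and siMITF minus siCtrl (blue), per cell at left and relative to the median probe set at right; bars are 1 SE. ID2 stands at 1.09 with THZ1 on the relative scale, ID3 changes sign between the contrasts there, and ID4 lies below 0 in both panels and both contrasts.

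The order of the per-cell levels within each set follows from these values. In the drug arrays ID2 was higher with THZ1, ID3 was higher with DMSO, and the DMSO and THZ1 arrays of ID1 overlapped on all 3 probe sets. For ID4 the order was DMSO above THZ1 on the group means of all 4 probe sets, but the brightest probe set's arrays overlapped. In the siRNA arrays each of the 4 genes had the higher per-cell mean with siCtrl on every probe set, and the arrays overlapped only on the brightest ID3 probe set. Relative to the median probe set the order was turned for ID1 and ID3, whose siMITF arrays lay above both siCtrl arrays on all 3 probe sets of each gene. The probe sets of 1 gene share its transcripts and are not replicates of each other. Within ID4 the per-cell siMITF differences ranged from -1.20 to -0.84, and within ID1 all 3 were -0.48.

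Genes with the most similar profile were sought over the 8 arrays by the root mean square difference of relative log2 values, after centring within the drug and within the siRNA arrays. Among 11934 other genes, those nearest to ID2 were BRD2, a bromodomain protein that binds acetylated histones (0.06), CSMD1 (0.08), ARGLU1 (0.11), CCDC183 (0.11) and KLF10, an early response gene of TGF-beta (0.14). The median over all genes was 0.41. These genes had relative differences of 0.84 to 0.97 with THZ1, and of -0.34 (KLF10) to 0.10 (CCDC183) with siMITF. CSMD1 had another probe set at -0.12 with THZ1, while those of BRD2 (0.67), ARGLU1 (0.71 to 0.82) and KLF10 (1.08) had the same sign. After siMITF the other CSMD1 probe set had 0.71, against -0.08 on the brightest, and that of BRD2 had 0.05, against -0.11. The points share arrays and centring, and the choice of ID2 fixes its high values with THZ1.

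The other members had other neighbours. Nearest to ID3 were DNAJC16, a member of the DNAJ family (0.03), C6orf47 (0.04) and FAM131A (0.04), with differences of -0.69 to -0.63 with THZ1 and 0.34 to 0.40 with siMITF. Nearest to ID4 were NUP155, a nuclear pore protein (0.03), EXOSC8, an exosome subunit (0.03), and PDSS1 of coenzyme Q synthesis (0.03), with -0.59 to -0.53 after siMITF. PDSS1 had another probe set at 0.34 after siMITF. Nearest to ID1 were B3GAT2, TRAPPC5 and GET4 (0.03 each). No ID gene was among the nearest of another: the smallest distance between members was 0.28, of ID1 and ID4, and the largest 0.65, of ID2 and ID3.

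**Figure D3:**
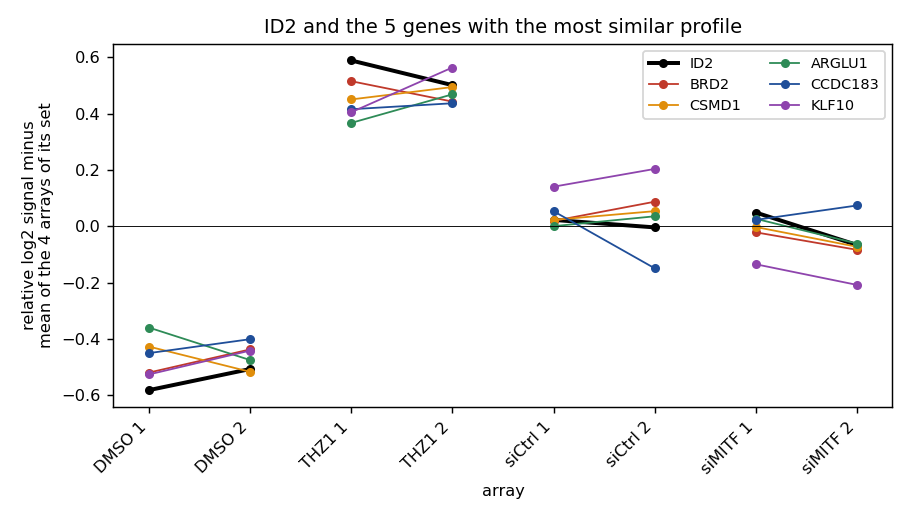
Relative log2 signal of ID2 and of the 5 genes with the most similar profile on each of the 8 arrays, minus the mean of the 4 arrays of its set; lines join the 2 arrays of a group. All 6 genes are above 0 on the THZ1 arrays and below 0 on the DMSO arrays, which follows from the choice of ID2 and of its nearest profiles. On the siRNA arrays the values run from -0.21 to 0.20, both of KLF10.

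The partners of the ID proteins and the BMP and TGF-beta pathways were read from 9 lists with 121 genes. Of these, 116 had a probe set and 87 were tested on the brightest one. With THZ1 12 were lower and 0 higher on the per-cell scale. Centring on the median probe set left 24 lower and 8 higher. Over the brightest probe sets of all 11947 tested genes the shares were 9.63% lower and 0.0753% higher per cell, and 21.8% and 13.0% on the relative scale. After siMITF 45 were lower and 0 higher per cell, beside 65.0% and 0.352% of all genes. Relative to the median probe set 14 were lower and 25 higher, beside 23.3% and 19.9%. Each list count below is to be read beside these shares of all genes. Some list genes had signals near the filter of 39.2, and the part of low signal in their relative differences was not tested. The THZ1 count per cell was 5 without DMSO replicate 2 or without THZ1 replicate 1, and 21 without THZ1 replicate 2. The siMITF count per cell was 11 without siCtrl replicate 2 and 13 without siMITF replicate 2. On the relative scale the higher genes numbered 4 with THZ1 without DMSO replicate 2 and 5 without any other array of that contrast, and 15 with siMITF without siMITF replicate 1.

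The E proteins, the direct partners of ID proteins, did not pass with THZ1. TCF12 had a relative difference of -0.02 (SE 0.10, limma adjusted p = 0.907) and TCF3 of 0.04 (adjusted p = 0.758), and TCF4 was below the filter on low signals. The 9 other probe sets of TCF12 ran from -0.38 to 0.31 with THZ1, 5 of them of opposite sign. Those of TCF3 had 0.02 to 0.07. After siMITF TCF12 rose relative to the median probe set by 0.78 (SE 0.10, adjusted p = 2.07e-04), with 0.14 per cell (adjusted p = 0.584), and its 9 other probe sets had 0.10 to 0.55 on the relative scale. On its brightest probe set TCF3 had 0.12 relative to the median probe set (adjusted p = 0.282) and fell by 0.52 per cell (adjusted p = 0.0470). The 3 other TCF3 probe sets had higher relative differences, of 0.30 to 0.49.

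Of 12 tested class II bHLH factors, the tissue-restricted partners of E proteins, 5 fell and 0 rose relative to the median probe set with THZ1, and 4 fell per cell. The list median was -0.05 beside 0.04 for all tested probe sets. OLIG2, a factor of the glial and neural lineages, fell by 1.12 on that relative scale (SE 0.10, limma adjusted p = 2.51e-05). TWIST1, a mesenchymal and neural crest factor, fell by 1.13 (adjusted p = 1.21e-04) and ATOH8 by 0.60. After siMITF 0 fell and 5 rose relative to the median probe set, with a list median of 0.28, and 2 fell per cell. Over all tested genes 23.3% fell and 19.9% rose on the relative scale, and 65.0% fell per cell. Among the risers, TCF23, MESP2 and NHLH1 were dim. Their signals were 35.0 and 36.7, 41.6 and 47.0, and 47.5 and 46.8 with siCtrl. With siMITF they were 36.2 and 27.3, 32.4 and 28.6, and 39.5 and 29.0, near or below the filter of 39.2. The part of low signal in these relative rises was not tested. HAND2, a factor of the heart and the sympathetic lineage, rose by 0.98 (adjusted p = 1.24e-05), with 0.34 per cell (adjusted p = 0.184), and TCF23 rose by 0.52.

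The HES, HEY and BHLHE repressors, a separate class of bHLH proteins, went both ways. Of 9 tested, 2 fell and 2 rose with THZ1 relative to the median probe set, and 2 fell per cell. BHLHE41 fell by 1.22 (SE 0.10, limma adjusted p = 1.47e-05) and HEY2 by 0.63, while HES1, a target of Notch signalling, rose by 0.67 (adjusted p = 0.00192) with 0.49 per cell (adjusted p = 0.259). With THZ1 the other tested probe sets had 0.25 to 0.39 for HES1, -0.88 to -0.64 for BHLHE41 and -0.92 to -0.64 for HEY2 on the relative scale. After siMITF 5 fell and 1 rose on the relative scale and 8 fell per cell, with BHLHE41 (-0.76), HEY2 (-0.74) and HES6 (-0.65) the lowest in adjusted p. The other probe sets of BHLHE41 and HEY2 had -0.48 to -0.17 and -0.50 to -0.12.

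In the BMP and TGF-beta pathways, several SMADs were lower with THZ1. Of 5 tested receptor SMADs and SMAD4, 3 fell and 0 rose relative to the median probe set, and 2 fell per cell, with a list median of -0.36. SMAD1, which carries BMP signals, fell by 0.76 (SE 0.10, limma adjusted p = 2.34e-04) and SMAD3, which carries TGF-beta signals, by 0.74 (adjusted p = 4.26e-05). SMAD5 fell by 0.36, with 1 of its 4 other probe sets of opposite sign. SMAD4 and SMAD2 had -0.21 and -0.06, which did not pass (adjusted p = 0.0641 and 0.680). Of their 6 other probe sets each, 1 of SMAD4 and 3 of SMAD2 had the opposite sign. After siMITF SMAD3 rose relative to the median probe set by 0.30 (adjusted p = 0.00743), with -0.34 per cell (adjusted p = 0.185), and the other 4 did not pass there, at 0.18 for SMAD1, -0.05 for SMAD5, -0.12 for SMAD2 and -0.12 for SMAD4. The other SMAD3 probe sets had 0.05 and 0.73, and that of SMAD1 had 0.24. The sign was opposite to that of the brightest on all 4 other SMAD5 probe sets, on 4 of 6 of SMAD2 and on 3 of 6 of SMAD4. Per cell 3 of the 5 fell after siMITF, SMAD4 by 0.76 (adjusted p = 0.00419), SMAD2 by 0.76 (adjusted p = 0.00434) and SMAD5 by 0.69 (adjusted p = 0.00913).

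Among 8 tested ligands 0 fell and 2 rose with THZ1 on the relative scale, TGFB1 by 0.41 and GDF11 by 0.24, and 0 passed per cell. After siMITF 3 rose there, TGFB3 by 0.78, TGFB1 by 0.42 and INHBA by 0.30, and per cell 1 fell, BMP4 (-0.60, adjusted p = 0.0229). BMP2, BMP6 and BMP7, ligands known to induce ID genes, were below the filter. Of 11 receptors 4 fell and 1 rose with THZ1 relative to the median probe set. ACVR2B, an activin and BMP receptor, fell by 0.58 (limma adjusted p = 0.00132), with -0.05 on its other tested probe set, and ACVR2A rose by 0.37 (other probe set 0.19). ACVR1B had -0.32, but its 3 other probe sets had 0.18 to 0.38. After siMITF 1 receptor fell, TGFBR1 (-0.48, with 1 of 2 other probe sets of opposite sign), and 3 rose, among them ACVR2B (0.53) and ACVR2A (0.30). Per cell 1 receptor fell with THZ1 and 6 after siMITF.

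Of 15 inhibitors of these pathways, 4 fell and 3 rose with THZ1 relative to the median probe set, and 2 fell per cell. SMAD6 is an inhibitory SMAD that BMP signalling is known to induce, as it does ID genes. It fell by 1.04 (SE 0.13, limma adjusted p = 2.37e-04), and by 1.22 per cell. SMAD6 signals were 81.0 and 71.8 with DMSO and 21.3 and 26.1 with THZ1, the latter below the filter of 39.2. The 2 other tested probe sets of SMAD6 had only -0.16 and -0.04 on the relative scale. TGIF2, a SMAD corepressor, fell by 0.75 (other probe set -0.50), and NBL1, a BMP antagonist, rose by 0.34. After siMITF NBL1 fell by 0.72 (adjusted p = 6.19e-05) and SMAD7, the other inhibitory SMAD, rose by 0.52 (adjusted p = 5.34e-04) with -0.12 per cell. SMAD7 was dim, at 34.2 and 42.5 with siCtrl and 37.3 and 30.9 with siMITF, near the filter of 39.2. On the relative scale 7 of the 15 rose and 1 fell after siMITF, and 7 fell per cell.

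Of 19 other partners and regulators of ID protein stability, 4 fell and 0 rose relative to the median probe set with THZ1, and 0 passed per cell. USP1, a deubiquitinase reported to stabilise ID proteins, fell by 0.42 (SE 0.08, limma adjusted p = 0.00376), CDC20 by 0.52 and ELK3, an ETS factor, by 0.42. The other tested probe sets of these genes had -0.46 for USP1, -0.25 for CDC20 and -0.03 for ELK3. RB1, the retinoblastoma protein gene, had 0.15 (adjusted p = 0.346). After siMITF 7 fell and 1 rose on that scale, and 16 fell per cell. USP1 fell by 0.85 (adjusted p = 4.04e-05), ETS1 by 0.73 and CDC20 by 0.52.

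Of 6 genes reported to be repressed through ID proteins, 2 fell with THZ1 relative to the median probe set and 1 per cell. The cyclin-dependent kinase inhibitor genes CDKN1B and CDKN1A fell by 1.01 (SE 0.08, limma adjusted p = 1.21e-05) and 0.49. CDKN1C, CDKN2A, CDH1 and THBS1 had 0.17, 0.11, 0.10 and -0.07, which did not pass. After siMITF 3 rose relative to the median probe set: THBS1, thrombospondin, by 1.15, CDKN1C by 1.13 and CDKN1A by 0.53. Per cell these had 0.51, 0.49 and -0.11, which did not pass (adjusted p = 0.0511, 0.0594 and 0.676). CDH1, E-cadherin, fell by 0.87 per cell. Its signals were 63.0 and 59.7 with siCtrl and 28.3 and 24.2 with siMITF, the latter below the filter of 39.2. On the drug arrays CDH1 had 488.5 to 688.5. CDKN2A, CDKN1B and CDH1 had relative differences of 0.21, 0.16 and -0.23 that did not pass.

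**Figure D4:**
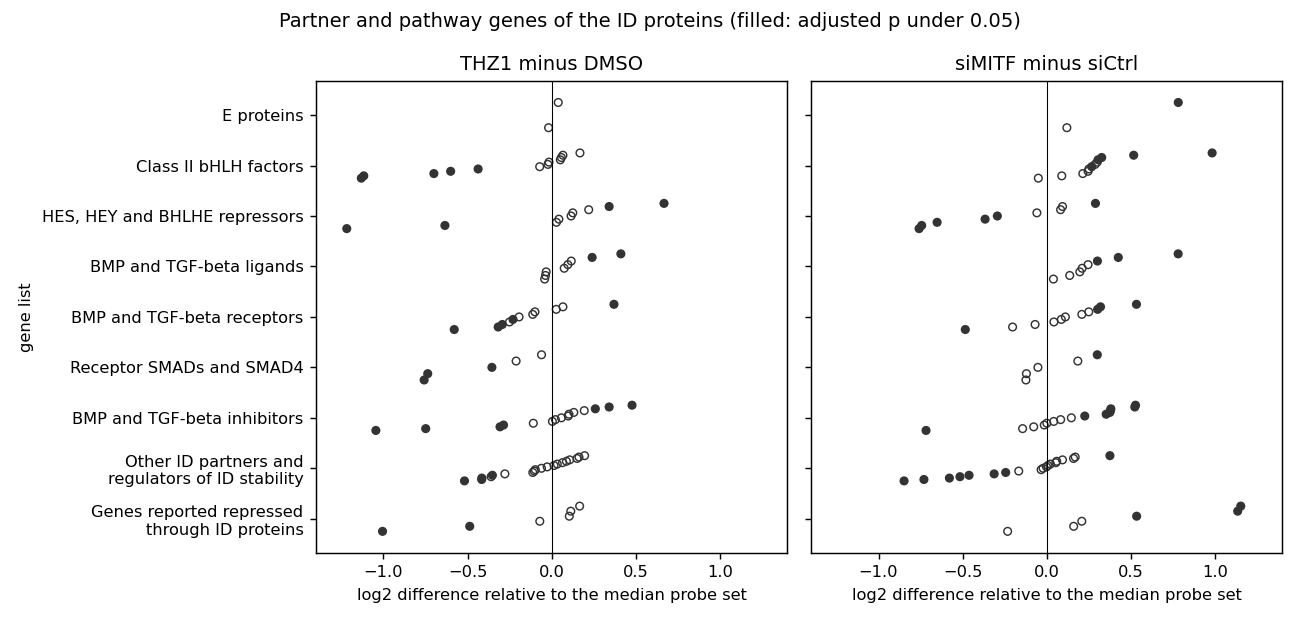
Log2 difference relative to the median probe set of each of the 87 tested partner and pathway genes, by list, for THZ1 minus DMSO at left and siMITF minus siCtrl at right; filled points passed at a limma adjusted p under 0.05. SMAD1 and SMAD3 lie at -0.76 and -0.74 with THZ1, and THBS1 and CDKN1C at 1.15 and 1.13 after siMITF.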

How the data were processed

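The deposited values are linear array intensities from MAS5, as the submitters' processing notes record. The authors scaled these intensities to cell number, as the series' design text states. How this was calculated is not given in the sources used here. Of 49495 probe sets, 45278 had 1 gene symbol, 1333 several, 2682 none and 202 were controls. Symbols were updated by gene ID for 45208.

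Intensities were taken as log2(value + 16). Probe sets with 1 symbol and a mean log2 intensity at or above the 40th percentile (a signal of 39.2) were tested, 27167 in all. limma 3.58.1 in R 4.3.3 fitted 1 mean per group over 8 arrays, with empirical Bayes variances and Benjamini-Hochberg adjustment over all tested probe sets. Calls are at an adjusted p under 0.05. Per cell the prior degrees of freedom were infinite, so all probe sets share 1 SE and small p-values are too small. The relative scale subtracts each array's median deviation of tested probe sets from their means over the 8 arrays. The relative fit of the siMITF contrast alone was tested on simulated data, with changes larger than those of the ID probe sets. The per-cell fit was not tested in this way.

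A pathway gene is its brightest probe set. Named genes were the members, the targeted gene, up to 3 per list and contrast by relative adjusted p, lists of at most 6 tested genes in full, and the nearest profiles. RB1, BMP4 and the ligands below the filter were added after their values were seen. The members and lists were chosen with earlier results of these data known. Alternatives were other pseudocounts (1 and 64), filters, variances, arrays, quantile normalization, replicate blocks and leaving out each array.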

Additional observations from a re-analysis of the deposited data

How the results depend on the processing

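The fall of ID4 after siMITF kept its direction on all 4 probe sets and both scales in every alternative run. On the relative scale the 3 that passed did so in each alternative, and per cell all 4 lost the call with each probe set's own variance. THZ1 differences without a test kept their sign for ID2 and ID3. Leaving out 1 array gave a count of lower ID probe sets after siMITF of 3 to 8 per cell, and of higher ones of 1 to 3 relative to the median probe set. It gave 5 to 21 lower list genes per cell and 4 to 8 higher relative ones with THZ1. With siMITF it gave 11 to 51 lower and 0 to 2 higher list genes per cell and 15 to 25 higher relative ones. The relative THZ1 difference of ID4 ran from -0.21 to -0.0382, and leaving out 1 array gave -0.077 to 0.0377 for ID2 after siMITF, the latter without siMITF replicate 2.

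Own variances gave 0 lower ID probe sets per cell, 0 lower list genes per cell in either contrast, and 4 and 14 higher list genes relative to the median probe set with THZ1 and siMITF. A pseudocount of 64 gave 8 lower ID probe sets per cell and 0 higher relative ones, -0.0062 for ID1 after siMITF (relative, brightest probe set) and 1.02 for ID2 with THZ1. A pseudocount of 1 gave 6 higher relative ID probe sets, 1 higher list gene per cell after siMITF and 0.0793 for ID2 (relative, siMITF). Without the filter 0 ID probe sets were higher, 1 and 10 list genes were, and the 3 ID1 probe sets had -0.0693, -0.0669 and -0.0624 after siMITF on that scale. The 60th percentile as filter gave 6 higher ID probe sets and 0.11 for ID2. Fitting only the 4 arrays of the contrast gave 8 lower ID probe sets and 2 higher list genes per cell after siMITF.

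Quantile normalization removes the per-cell offset by construction. It gave 3 lower and 7 higher ID probe sets after siMITF on the deposited scale and 7 higher on the relative one. List genes on the deposited scale were then 24 lower and 11 higher with THZ1 and 12 lower and 27 higher with siMITF. The siMITF differences became 0.44, 0.44 and 0.45 for ID1, 0.27 for ID2 and 0.62, 0.53 and 0.59 for ID3, with 0.29 for ID2 on the relative scale. THZ1 differences became 0.0109 for ID1, 0.93 for ID2 and -0.78 for ID3 there. Mean log2 signals became 9.92 (DMSO) and 10.22 (siMITF) for ID1, 9.41, 10.37 (THZ1) and 9.79 for ID2, 10.17, 9.41 (THZ1) and 10.67 for ID3, and 8.99 and 9.40 for ID4.

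Replicate numbers were not taken to pair the arrays: deviations of same-numbered arrays correlated at 0.10 for DMSO and THZ1 and at -0.17 for siCtrl and siMITF. The replicate block gave 8 lower ID probe sets and 2 higher list genes per cell after siMITF. Crossed siRNA numbers as a replicate block, added after seeing the data, gave 11 lower ID probe sets and 76 lower and 3 higher list genes per cell.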

Other observations

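Levels of the ID genes also differed between the control groups of the drug and the siRNA arrays, values that belong to no comparison above because the sets carry different spike-in signals. All 4 ID4 probe sets were higher with siCtrl than with DMSO, by 0.29 to 0.37 on the log2 scale per cell and 0.57 to 0.65 relative to the median probe set. ID1 and ID3 were lower with siCtrl, by -0.54 to -0.41 per cell and -0.26 to -0.14 relative to the median probe set. ID2 had -0.22 and 0.05. Transfection and array set differ together between these groups and cannot be told apart.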
